A study of Mus musculus with 12 samples.

Results

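Hemoglobin genes, the genes that start heme synthesis and the genes that break heme down were followed in the striatum of BACHD mice given an antisense oligonucleotide (ASO) against wig-1, the product of the gene Zmat3. The members are 10 named genes: the alpha globins Hba-a1 and Hba-a2, the beta globins Hbb-b1, Hbb-b2, Hbb-bt and Hbb-bs, the synthesis enzymes Alas1 and Alas2, and the breakdown enzymes Hmox1 and Blvrb. They were chosen from these same arrays, because globin signals were lower and the Hmox1 signal was higher with wig-1 ASO, so these differences are given as a description with no test. Of the 10 genes, 8 have a probe on the array and Hba-a2 and Hbb-b1 have none. These 8 genes have 17 of the 45281 probes. All 17 passed the detection limit of a detection p under 0.01 on at least 4 of the 12 arrays, as did 17188 probes in all, which stand for 10031 genes. The least often detected member probe passed on 9 arrays, so no member lay close to that limit.

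All 3 groups were male BACHD mice, 5 months old, which carry a full-length mutant human huntingtin gene on a bacterial artificial chromosome as a model of Huntington's disease, with 4 mice and 1 array per mouse in each group. The PBS mice received the vehicle, the wig-1 ASO mice an oligonucleotide that lowers Zmat3 RNA, and the control ASO mice an oligonucleotide with no intended target. Each was a single injection into the striatum, so every mouse carried an injection track, and the interval to tissue collection is not named for the arrays in the sources used here. The values are log2 of the deposited signal, which the authors had already quantile normalized, so that the sorted values of the 12 arrays are identical. Between 15228 and 17198 probes were detected per array, with both the fewest and the most on wig-1 ASO arrays. Zmat3 checked the labels: it was 26.2% of PBS with wig-1 ASO and 96.7% with control ASO, with no overlap between wig-1 ASO and either other group. Of 9 striatal marker genes, 7 were measured, Drd1, Drd2, Ppp1r1b, Penk and Tac1 among them, and each was detected on every array.

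Hemoglobin joins alpha globin and beta globin chains, each holding 1 heme, and red blood cells are its main site. Adult mouse beta globin comes from a pair of neighbouring genes, and laboratory strains differ in which pair they carry, Hbb-bs with Hbb-bt or Hbb-b1 with Hbb-b2. Heme synthesis begins with 5-aminolevulinate synthase, which is Alas1 in most tissues and Alas2 in red cell precursors. Heme breakdown begins with heme oxygenase, inducible as Hmox1 and constitutive as Hmox2, which opens the ring and frees iron. The biliverdin reductase Blvra then reduces the biliverdin formed. Blvrb is a reductase of flavins and of other forms of biliverdin. In the brain, Hmox1 is known as a gene of stressed glia and of phagocytes that take up blood.

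The sequences just upstream of the globin genes and of Alas2, the red cell gene of heme synthesis among the members, are shown as background. They are the 120 bases before each gene start from RefSeq on GRCm38.p6, on the strand of the gene, for the 5 members of this kind in that table. Capitals mark the motifs known as the CCAAT box (reverse complement ATTGG), the CACCC box (reverse complement GGGTG), the GATA motif (reverse complement TATC) and the TATAA box (reverse complement TTATA), searched on both strands. The windows are chr11:32283552-32283671 for Hba-a1, chr11:32296372-32296491 for Hba-a2, chr7:103827929-103828048 for Hbb-bs, chr7:103813924-103814043 for Hbb-bt and chrX:150547297-150547416 for Alas2, with both Hbb windows on the minus strand.
Hba-a1: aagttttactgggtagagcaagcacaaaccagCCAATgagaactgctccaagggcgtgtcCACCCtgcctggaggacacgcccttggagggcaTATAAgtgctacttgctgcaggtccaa
Hba-a2: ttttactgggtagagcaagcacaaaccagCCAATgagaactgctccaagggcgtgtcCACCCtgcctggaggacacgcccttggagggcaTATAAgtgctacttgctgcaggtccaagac
Hbb-bs: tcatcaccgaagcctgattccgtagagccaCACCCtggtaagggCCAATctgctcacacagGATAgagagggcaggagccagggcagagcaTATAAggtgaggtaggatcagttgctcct
Hbb-bt: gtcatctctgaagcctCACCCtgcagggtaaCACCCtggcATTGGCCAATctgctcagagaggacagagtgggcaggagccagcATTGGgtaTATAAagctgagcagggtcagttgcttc
Alas2: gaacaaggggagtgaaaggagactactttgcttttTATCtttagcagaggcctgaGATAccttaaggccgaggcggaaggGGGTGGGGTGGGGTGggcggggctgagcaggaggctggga

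Each of the 4 globin windows held a CCAAT box, a CACCC box and a TATAA box on the strand of the gene, in the adult alpha genes and the adult beta genes alike. Over 32851 promoter windows of the same length, the CCAAT box was present on either strand in 21.3%, the CACCC box in 31.7%, the TATAA box in 11.8% and all 3 together in 0.688%. The Alas2 window held neither the CCAAT box nor the TATAA box, but had the GATA motif on both strands, and the CACCC box 3 times as its reverse complement. The GATA motif was present in 29.5% of windows, and among the globin windows it was in Hbb-bs alone. These matches describe letters only, and a link between them and the array signals was not tested. The Hba-a1 and Hba-a2 windows shared an unbroken run of 117 bases, and the Hbb-bs and Hbb-bt windows were identical at 77.5% of positions. Upstream bases are not part of the transcript, and probe sequences were not examined, so binding of a probe to more than 1 globin transcript was not tested. The gene given to a globin probe is that of the platform annotation. Whether a probe tells the members of a pair apart is not known here.

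The alpha globin gene Hba-a1, read by 1 probe (ILMN_1212702), was lower in every wig-1 ASO mouse than in any other mouse. Its log2 signal, in order of replicate number from 1 to 4 as in all such lists here, was 11.84, 11.59, 11.33 and 11.75 with PBS. The wig-1 ASO mice had 10.54, 10.45, 10.82 and 11.13, whereas the control ASO mice had 11.64, 11.39, 11.84 and 11.66. Wig-1 ASO replicates 1 and 2 were the lowest of the 12, and the PBS and control ASO groups overlapped. The PBS mean was 11.63 ± 0.22 (SD, n = 4 here and below), the wig-1 ASO mean 10.74 ± 0.31 and the control ASO mean 11.63 ± 0.18. The difference from PBS was −0.89 on the log2 scale (SE 0.17), or 54.0% of the PBS signal, and the difference from control ASO was −0.90 (SE 0.17), or 53.7%.

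The beta globin genes showed the same order of groups. The brightest Hbb-bt probe (ILMN_1236718) read 11.80, 11.64, 11.91 and 11.83 with PBS, 10.57, 10.40, 11.12 and 11.14 with wig-1 ASO, and 11.66, 11.65, 11.92 and 11.97 with control ASO. The wig-1 ASO values again lay below all others, with replicates 1 and 2 lowest. Its mean was 50.4% of PBS, a log2 difference of −0.99 (SE 0.17), and 50.3% of control ASO. The brightest Hbb-bs probe (ILMN_1244316) read 11.70, 11.52, 11.68 and 11.85 with PBS, 10.29, 10.25, 10.90 and 11.12 with wig-1 ASO, and 11.58, 11.26, 11.82 and 11.74 with control ASO. No wig-1 ASO value reached the lowest of the other 8. The log2 difference was −1.04 (SE 0.20) from PBS and −0.96 (SE 0.20) from control ASO, or 48.5% and 51.4% of those groups.

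The probe annotated to Hbb-b2 (ILMN_2729513) was the one probe, among those detected on every array, at which wig-1 ASO overlapped with control ASO. It read 6.31, 6.26, 6.11 and 6.65 with PBS, 4.98, 4.84, 6.03 and 5.93 with wig-1 ASO, and 6.36, 5.77, 6.96 and 6.58 with control ASO. Wig-1 ASO replicates 3 and 4 lay above control ASO replicate 2, though below every PBS array. The differences were −0.89 (SE 0.31) from PBS and −0.97 (SE 0.31) from control ASO. A dim Hbb-bt probe (ILMN_1235372), detected on 4 PBS, 1 wig-1 ASO and 4 control ASO arrays, read 3.75, 3.19, 3.45 and 3.52 with PBS and 1.52, 2.24, 3.09 and 1.47 with wig-1 ASO, while the control ASO values spanned 2.82 to 3.58. Its difference from PBS, −1.39 (SE 0.32), was the largest of any globin probe and rests on signals near background.

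**Figure D1:**
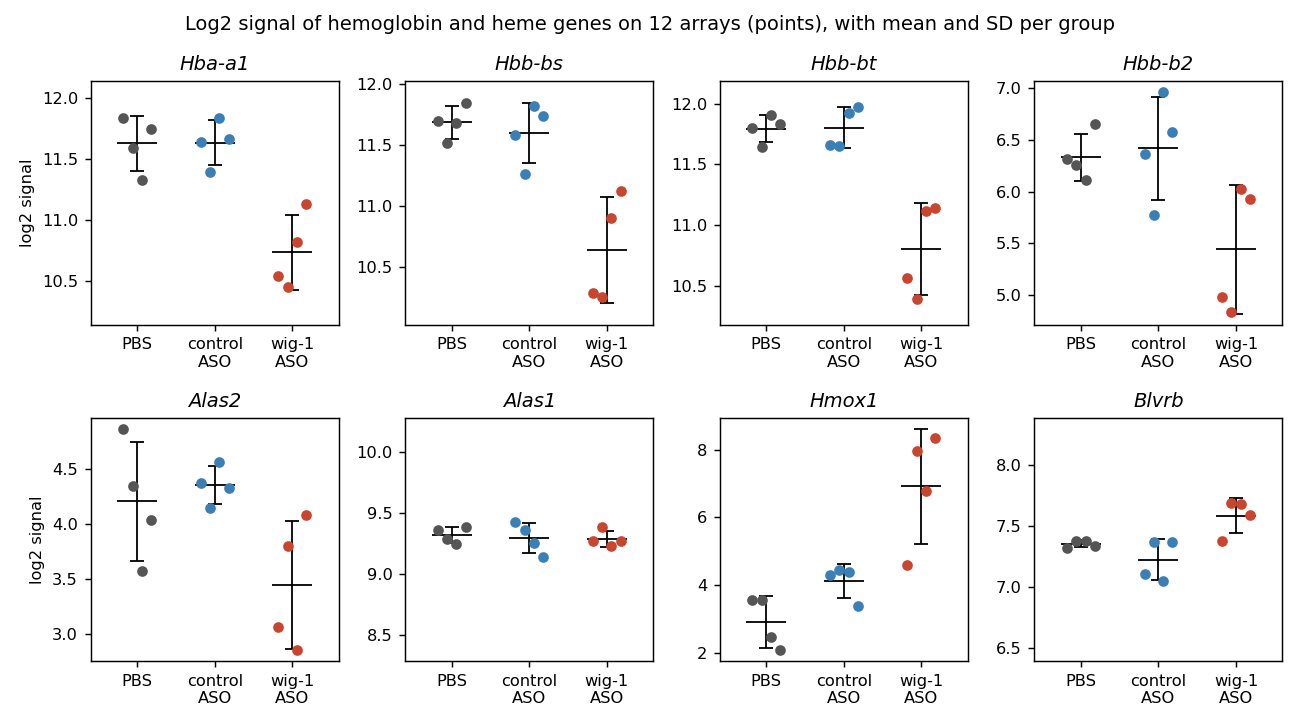
Log2 signal (vertical axis of each panel) of the 8 measured genes, at the brightest probe of each, on the 12 arrays, with 1 point per mouse, a horizontal line at the group mean and bars of 1 SD. The wig-1 ASO points lie below all PBS points for Hba-a1, Hbb-bs, Hbb-bt and Hbb-b2 and above all others for Hmox1, whereas the 3 groups of Alas1 lie on top of each other between 9.14 and 9.43.

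Over all 12 globin probes the log2 difference from PBS ran from −1.39 to −0.89 with a median of −1.03, that is, 1.85- to 2.63-fold lower and 49.0% of the PBS signal at the median. The median over all 17188 kept probes was −0.02. All 12 globin probes lay below every PBS array in the wig-1 ASO mice, and 4.51% of all kept probes did so. Nothing is read from that contrast, since the globins were chosen for being lower, and the 12 probes share target genes and are not 12 separate results. Against control ASO the differences ran from −1.12 to −0.88 with a median of −1.01, and 10 of the 12 probes had no overlap, as did 4.60% of kept probes in that direction. The 2 that overlapped were the Hbb-b2 probe and the dim Hbb-bt probe. In all, 267 probes, 1.55% of those kept, lay below all 8 PBS and control ASO arrays, 10 of them globin probes. In bulk tissue, fewer cells that carry a transcript and less RNA per cell cannot be told apart.

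Control ASO against PBS is the comparison that did not choose the members, although it shares the PBS arrays with one that did. No globin probe passed in it, at adjusted p-values from limma between 0.870 and 0.996, and 0% of all kept probes passed (0 of 17188, with 1175 at an unadjusted p under 0.05). The globin differences ran from −0.27 to 0.09 with a median of −0.07, with 7 probes lower and 5 higher. For Hba-a1 the difference was 0.01 (95% interval −0.36 to 0.38, exact two-sided permutation p = 1 over 70 arrangements, of which the smallest possible p is 0.029). For the brightest Hbb-bt probe it was 0.00 (95% interval −0.37 to 0.38, exact permutation p = 0.914), and for the brightest Hbb-bs probe −0.08 (95% interval −0.52 to 0.36, exact permutation p = 0.657). No control ASO group was clear of the PBS group at any globin probe, against 2.50% of kept probes lower and 2.32% higher.

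**Figure D2:**
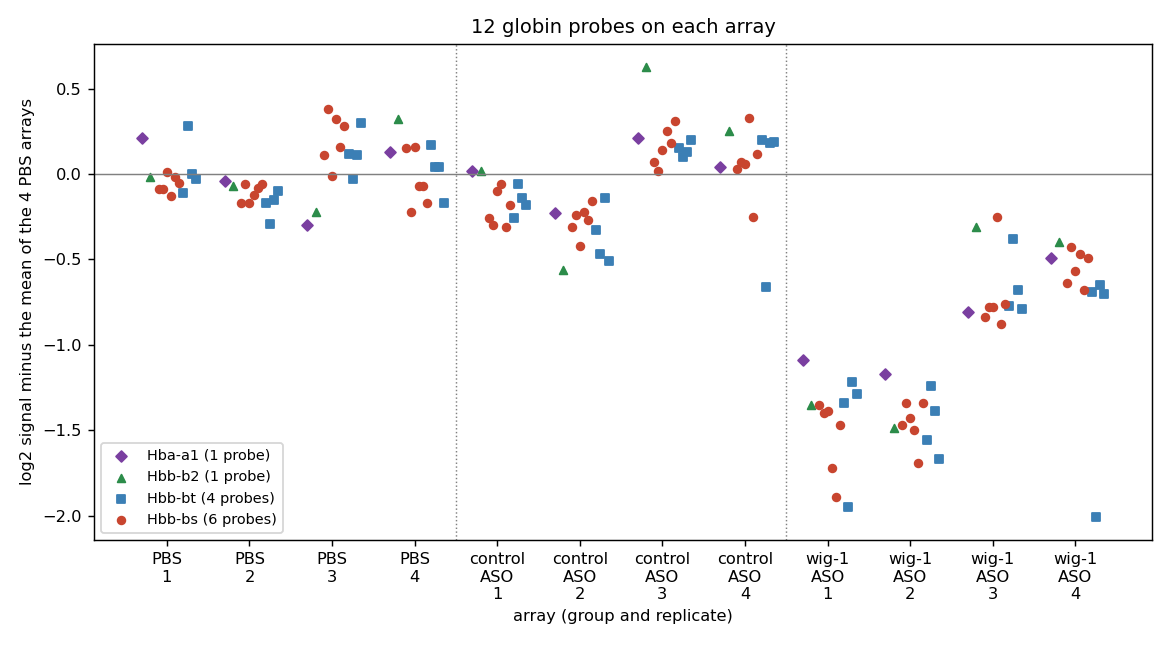
Log2 signal of each of the 12 globin probes minus the mean of the 4 PBS arrays for that probe (vertical axis), on every array (horizontal axis), with colour and shape for the gene. The PBS and control ASO arrays scatter around 0, and all probes of the wig-1 ASO arrays lie below 0, those of replicates 1 and 2 lower than most of those of replicates 3 and 4.

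Globin probes rose and fell together from mouse to mouse within the groups as well. Over the 11 globin probes detected on every array, the median deviation from the PBS mean was, for the wig-1 ASO mice in order, −1.35, −1.47, −0.78 and −0.57. It was −0.03, −0.10, 0.12 and 0.04 in the PBS replicates and −0.18, −0.27, 0.18 and 0.12 in the control ASO replicates. The wig-1 ASO mice thus fell into a lower and a less low pair, and the least lowered of them was still below each of the other 8. After the group means were taken away, the Pearson correlation between pairs of these probes over the 12 arrays ranged from 0.45 to 0.98. The median was 0.87 (55 pairs). Beta globin probes annotated to 1 gene share a target, others may do so, and all probes of an array share its RNA. Hba-a1, a gene on chromosome 11, correlated with the beta globin probes, of genes on chromosome 7, at 0.45 to 0.84. Zmat3 was lowest in wig-1 ASO replicate 4, at −2.54 from the PBS mean against −1.61, −1.87 and −1.72 in replicates 1 to 3, so the array with the least Zmat3 was the one with the most globin of its group.

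By the same measure of likeness, taken over 10023 other genes, the 5 genes most like the brightest globin probe (Hbb-bt, ILMN_1236718) were Acot13 (r = 0.924), H4c8 (r = 0.873), Tmem59l (r = 0.838), Gclm (r = 0.832) and Zfp324 (r = 0.831), over 12 arrays. At the top of a ranking of 10023 genes over 12 arrays, r can be high by chance. This probe varied most within the wig-1 ASO group (SD 0.38, against 0.11 with PBS and 0.17 with control ASO), so the likeness rests largely on that group. Acot13 encodes a mitochondrial acyl-CoA thioesterase and Gclm the modifier subunit of the enzyme that begins glutathione synthesis. With wig-1 ASO against PBS, Acot13 differed by 0.07 (SE 0.08, adjusted p = 0.689) and H4c8, a histone H4 gene, rose by 0.87 (SE 0.20, adjusted p = 0.0372), the direction opposite to the globins. Tmem59l differed by 0.01 (SE 0.10) and Zfp324, detected on 5 arrays, by −0.52 (SE 0.46, adjusted p = 0.613), and Gclm is given with the heme pathway genes below. The H4c8 call survived only 2 of the 12 fits with an array dropped, that of wig-1 ASO replicate 1 and that of control ASO replicate 4.

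Alas2, the red cell form of the first enzyme of heme synthesis, was dim, with detection on 4 PBS, 3 wig-1 ASO and 4 control ASO arrays. It read 4.87, 4.35, 3.57 and 4.04 with PBS, 3.06, 3.80, 2.85 and 4.08 with wig-1 ASO, and 4.38, 4.15, 4.57 and 4.33 with control ASO. Wig-1 ASO values were all below control ASO but overlapped with PBS, where replicate 3 was at 3.57. The log2 difference was −0.76 (SE 0.30, or 59.1% of PBS) and −0.91 (SE 0.30, or 53.3% of control ASO). Wig-1 ASO replicate 3 had the lowest Alas2 value but not the lowest globin values, and replicate 2, with the lowest globin values, stood at 3.80. After the group means were taken away, Alas2 correlated with Hba-a1 at 0.55 over the 12 arrays. For control ASO against PBS the difference was 0.15 (SE 0.30, adjusted p = 0.932, exact permutation p = 0.6, 95% interval −0.52 to 0.82).

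Alas1, the form that most tissues use, differed by less than the spread between mice in each comparison. It read 9.36, 9.29, 9.25 and 9.39 with PBS, 9.27, 9.39, 9.23 and 9.27 with wig-1 ASO, and 9.43, 9.36, 9.26 and 9.14 with control ASO. The groups overlapped completely. The differences were −0.03 (SE 0.09) for wig-1 ASO against PBS, −0.01 (SE 0.09) for wig-1 ASO against control ASO and −0.02 (SE 0.09, adjusted p = 0.972) for control ASO against PBS.

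The enzymes that carry heme synthesis beyond its first step were not members and were tested in all comparisons. They were, however, listed with earlier results of these data known, which holds for every gene and marker list below. Of 7 such genes, 5 were measured and none passed in any comparison by limma. The range of their differences with wig-1 ASO against PBS was from −0.09 to 0.21. Alad, which joins 2 molecules of aminolevulinate, differed by −0.03 (SE 0.09, adjusted p = 0.904), and Urod, which trims the side chains of the ring, by 0.07 (SE 0.09, adjusted p = 0.764). Fech, the ferrochelatase that inserts iron to complete heme, was detected on 9 arrays and differed by −0.05 (SE 0.41, adjusted p = 0.969), the widest error of these enzymes. Cpox was detected on no array.

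Hmox1, the inducible heme oxygenase, was the member with the widest range. Its probe (ILMN_2788073) read 3.55, 3.55, 2.46 and 2.07 with PBS, 4.59, 7.98, 6.77 and 8.36 with wig-1 ASO, and 4.29, 4.44, 4.39 and 3.39 with control ASO. All wig-1 ASO values lay above all others, replicate 1 only just above control ASO replicate 2 and the other three far above. The PBS mean was 2.91 ± 0.76 (SD), the wig-1 ASO mean 6.93 ± 1.70 and the control ASO mean 4.13 ± 0.50. The log2 differences, 4.02 from PBS and 2.80 from control ASO (SE 0.70 each), correspond to 16.2-fold and 6.96-fold. The PBS signal was detected on 2 of 4 arrays, and the fold depends on how such dim signals are treated, since adding 16 to every signal before taking log2 gave a difference of 2.61 in place of 4.02 against PBS and 2.12 in place of 2.80 against control ASO. Wig-1 ASO replicate 1 also set its size, and without that array the differences were 4.80 and 3.58. In all, 394 probes, 2.29% of those kept, lay above all 8 PBS and control ASO arrays, and Hmox1 was the one member among them. Against PBS alone 5.56% of kept probes lay clear above, and against control ASO alone 4.14%. Nothing is read from these shares, since Hmox1 too was chosen on this contrast.

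With control ASO, Hmox1 was 1.22 higher than with PBS on the log2 scale (SE 0.70, 95% interval −0.32 to 2.75), which did not pass (adjusted p = 0.761 from limma, exact permutation p = 0.086). Control ASO replicates 1 to 3, at 4.29 to 4.44, lay above all PBS arrays, and replicate 4, at 3.39, lay between them.

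Within the wig-1 ASO group, the order of the mice by Hmox1 was not their order by globin. Set beside the globin medians given above, the Hmox1 deviations from the PBS mean in wig-1 ASO replicates 1 to 4 were 1.68, 5.07, 3.86 and 5.45. Replicate 1 had the second lowest globin signal and the smallest Hmox1 signal of the group, and replicate 4 had the highest of both. Replicate 2 combined the lowest globin signal with a high Hmox1 signal.

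**Figure D3:**
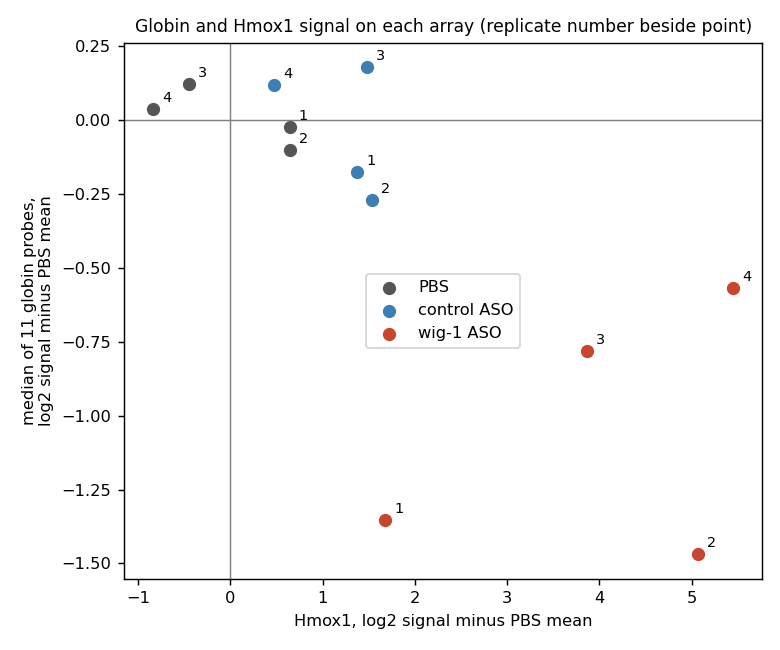
Median deviation of 11 globin probes from the PBS mean (vertical axis, log2) against that of Hmox1 (horizontal axis, log2), with 1 point per array and the replicate number beside it. The wig-1 ASO arrays occupy the lower right, and within them replicate 1 (1.68 and −1.35) and replicate 4 (5.45 and −0.57) differ in both measures.

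The 5 genes most like Hmox1 within groups were Ccnd1 (r = 0.961), Nrp1 (r = 0.960), Dusp4 (r = 0.953), Cdv3 (r = 0.952) and Mmgt2 (r = 0.944), over 12 arrays and 10023 genes. Since wig-1 ASO replicate 1 lay far below the other three arrays of its group, the likeness rests largely on that group. Here too, r at the top of such a ranking can be high by chance. Ccnd1, the cyclin D1 gene, also rose with wig-1 ASO against PBS, by 1.08 (SE 0.23, adjusted p = 0.0309), a call that was lost whenever any PBS array or any of wig-1 ASO replicates 2 to 4 was dropped. Dusp4, a phosphatase of MAP kinases, differed by −0.11 (SE 0.25, adjusted p = 0.866).

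Blvrb, a reductase of biliverdin and of flavins, has 2 probes that gave differences of unlike size. The brighter (ILMN_2792868) read 7.32, 7.38, 7.38 and 7.34 with PBS, 7.38, 7.69, 7.68 and 7.59 with wig-1 ASO, and 7.11, 7.37, 7.05 and 7.37 with control ASO. Wig-1 ASO lay above control ASO on every array, and its replicate 1 was level with the highest PBS arrays. The difference was 0.23 (SE 0.11) from PBS and 0.36 (SE 0.11) from control ASO. The dimmer probe (ILMN_2770917) overlapped with both groups and differed by 0.79 (SE 0.32) and 0.52 (SE 0.32), with PBS replicate 3, at 2.16, below detection. For control ASO against PBS the differences were −0.13 (SE 0.11, adjusted p = 0.811) and 0.27 (SE 0.32, adjusted p = 0.870). The other enzymes of breakdown, the constitutive heme oxygenase Hmox2 and the reductase Blvra, did not pass in any comparison, with differences from PBS of −0.11 (SE 0.12, adjusted p = 0.664) and 0.18 (SE 0.09, adjusted p = 0.349) with wig-1 ASO.

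Iron freed from heme is stored in ferritin or exported. Of the 7 iron genes listed, Ftl1 and Slc40a1 passed with wig-1 ASO. Ftl1, the ferritin light chain, read 9.67, 9.35, 9.46 and 9.47 with PBS, 9.99, 11.78, 11.14 and 11.38 with wig-1 ASO, and 9.62, 9.61, 9.80 and 9.31 with control ASO, with no overlap. It rose by 1.59 (SE 0.30, adjusted p = 0.0205) against PBS and by 1.49 (SE 0.30, adjusted p = 0.0473) against control ASO. Slc40a1, the iron exporter ferroportin, read 6.97, 6.70, 6.36 and 6.55, then 7.07, 8.01, 7.63 and 7.82, then 6.69, 6.44, 6.63 and 6.60, and rose by 0.99 (SE 0.19, adjusted p = 0.0217) and 1.05 (SE 0.19, adjusted p = 0.0420). As with Hmox1, replicate 1 was the lowest wig-1 ASO array at both genes. The ferritin heavy chain Fth1 differed by −0.02 (SE 0.10, adjusted p = 0.953) and the transferrin receptor Tfrc by −0.22 (SE 0.17, adjusted p = 0.530). Thus 2 of the 7 iron genes rose against PBS and 5 did not pass. Among all kept probes, 2.29% passed as higher against PBS and 0.634% against control ASO. Nothing is read from a count of 2 on a list made with earlier results known.

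These calls depend on single arrays. Against PBS, dropping any one of wig-1 ASO replicates 2 to 4, or either of PBS replicates 2 and 3, ended the call of both Ftl1 and Slc40a1 (highest adjusted p = 0.0663 and 0.0701). Against control ASO both calls ended in 11 of 12 such fits, the exception being that in which wig-1 ASO replicate 1 was dropped. Neither gene differed by much in control ASO against PBS, at 0.10 (SE 0.30, adjusted p = 0.959) and −0.06 (SE 0.19, adjusted p = 0.967).

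The lists of heme, iron, other globin and regulator genes and of targets of the NRF2 factor hold 66 genes that are not members. They are called heme pathway genes here, and 41 of them were measured. With wig-1 ASO against PBS, 2 rose, 2 fell and 37 did not pass, where 3.36% of all kept probes passed, 2.29% higher and 1.06% lower, and the median difference was 0.03 beside −0.02 over all kept probes. Fam210b, whose mitochondrial product aids heme synthesis in red cell precursors, fell by 0.52 (log2, SE 0.13, adjusted p = 0.0487), and so did Ppargc1a, a coactivator that raises Alas1 expression in liver, by 0.62 (SE 0.13, adjusted p = 0.0282). Fam210b was also lower with control ASO than with PBS, by −0.38 (SE 0.13, adjusted p = 0.681), and wig-1 ASO differed from control ASO by −0.13 (SE 0.13, adjusted p = 0.709). With an array dropped, the Fam210b call survived only in the absence of wig-1 ASO replicate 1, and the Ppargc1a call ended in 5 fits, those lacking any of PBS replicates 1 to 3 or either of wig-1 ASO replicates 2 and 4. Against control ASO, 3 rose, none fell and 38 did not pass, where 0.943% of kept probes passed, 0.634% higher and 0.308% lower. The 3 were Ftl1, Slc40a1 and Gclm, a target of the NRF2 factor that also acts on Hmox1, at 0.57 (SE 0.10, adjusted p = 0.0410), whose call survived in 2 of the 12 fits, one lacking wig-1 ASO replicate 1 and the other PBS replicate 4. Against PBS, Gclm differed by 0.33 with wig-1 ASO (SE 0.10, adjusted p = 0.0931) and by −0.24 with control ASO (SE 0.10, adjusted p = 0.713). With only the 2 compared groups in the fit, 0 of the 41 passed in either comparison. None of the 41 passed in control ASO against PBS, where the median difference was 0.01.

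Of 7 NRF2 targets other than Hmox1, 5 were measured. Their differences from PBS ranged from 0.03 at Srxn1, which restores peroxiredoxins, to 0.44 at Nqo1, a quinone reductase detected on 6 arrays, and none of them passed against PBS. Slc7a11, the cystine carrier, differed by 0.31 (SE 0.09, adjusted p = 0.0979). The genes that take up and move heme included Slc46a1, a carrier of folate and heme, at 0.44 (SE 0.13, adjusted p = 0.0919), which did not pass, and none of the 7 measured of 11 passed in any comparison. The plasma scavengers Hp and Hpx and the hemoglobin receptor Cd163 were below the detection limit, with Hpx on no array, Cd163 on 1 and Hp on at most 2. Of the regulators, the red cell factors Gata1 and Nfe2 were detected on no array and Klf1 and Tal1 on 1. Bach1, a repressor of Hmox1 that heme removes from DNA, differed by 0.57 (SE 0.31, adjusted p = 0.373), and Nr1d1, a nuclear receptor that binds heme, by −0.51 (SE 0.17, adjusted p = 0.146).

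Globins outside the red cell did not pass. Ngb, the neuronal globin, differed by −0.48 (SE 0.33, adjusted p = 0.489) against PBS and −0.07 (SE 0.33, adjusted p = 0.959) against control ASO, and Cygb, a globin of fibroblast-like cells and some neurons, by −0.15 (SE 0.14, adjusted p = 0.623) and −0.24 (SE 0.14, adjusted p = 0.498). The embryonic chains Hba-x and Hbb-y and the theta chain Hbq1b were detected on no array, and the embryonic chain Hbb-bh1 on at most 2.

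**Figure D4:**
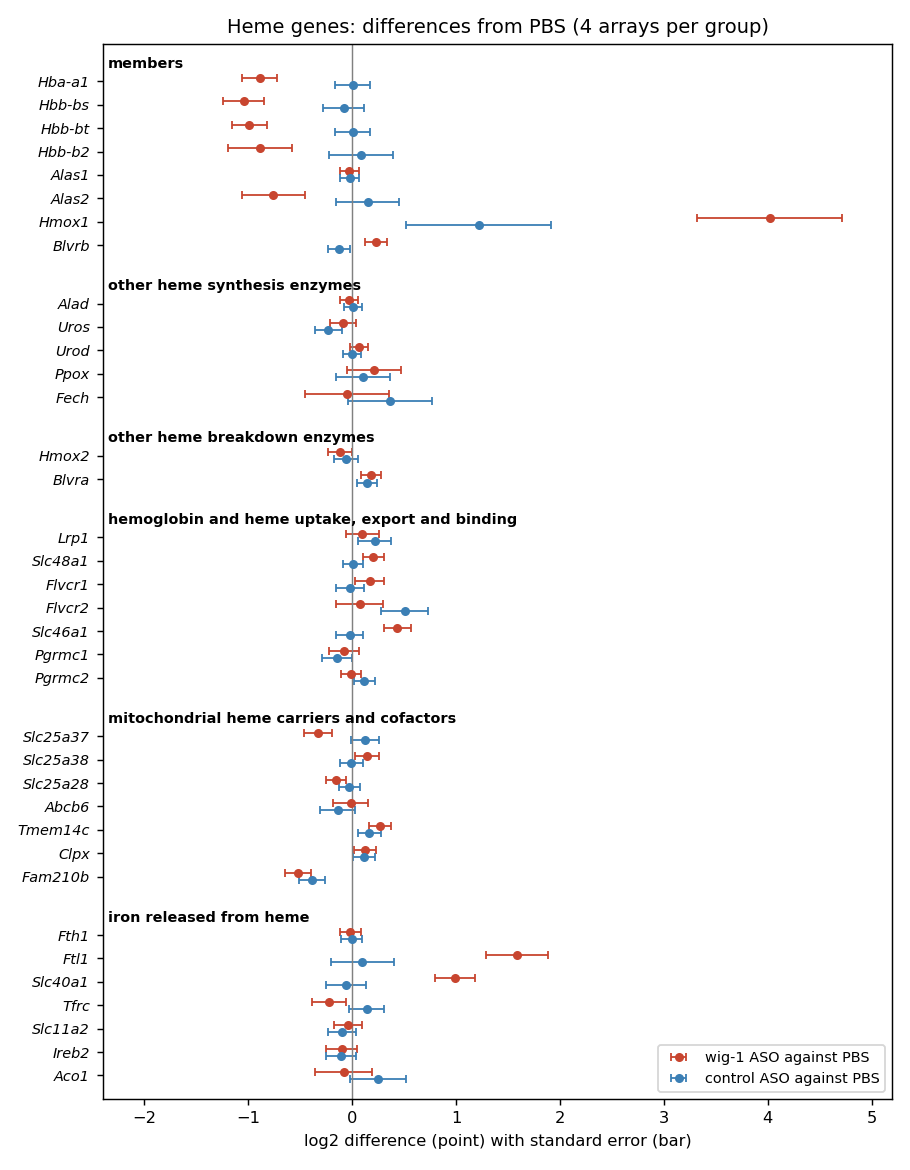
Log2 difference from PBS (horizontal axis) of the members and of measured heme and iron genes, for wig-1 ASO (red) and control ASO (blue), with bars of 1 SE and 4 arrays per group. For wig-1 ASO the globins and Alas2 lie to the left and Hmox1, Ftl1 and Slc40a1 to the right, Alad, Uros and Urod lie near 0 for both, and Hmox1 with control ASO (1.22, SE 0.70) is the blue point farthest from 0.

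Markers of the cells that carry or clear hemoglobin were set beside these results. Of 12 red blood cell genes other than the globins, 10 have a probe, 2 were measured and 6 were detected on no array, with Epb42, Rhag and Kel among the 6 and the anion exchanger Slc4a1 detected on 1. The 2 measured were Sptb, a spectrin that neurons also express, at −0.40 (SE 0.17, adjusted p = 0.251), and Bpgm, detected on 2 PBS, 3 control ASO and no wig-1 ASO arrays, for which no fold is given (adjusted p = 0.412 against PBS). The summed signal of these 2 genes was 345 to 557 on PBS, 294 to 452 on wig-1 ASO and 371 to 438 on control ASO arrays. Of 10 endothelial genes, 8 were measured and none passed, Cldn5 at 0.39 (SE 0.13, adjusted p = 0.143) and Pecam1 at 0.14 (SE 0.19, adjusted p = 0.754) among them, with sums of 1509.7 to 1750.1, 1662 to 1937 and 1665 to 2138 in the same order of groups. The part of blood content in the globin differences was not tested, since most red cell genes other than the globins were below detection.

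Some markers of microglia were higher in the wig-1 ASO group, in which Hmox1, Ftl1 and Slc40a1 were high. Of 7 microglial genes, 5 were measured, and 2 of the 5 passed against PBS and 1 against control ASO, where 2.29% and 0.634% of all kept probes passed higher. Aif1 rose by 1.05 (SE 0.17, adjusted p = 0.0105) and Tmem119 by 0.82 (SE 0.16, adjusted p = 0.0245) against PBS. Csf1r (0.78, SE 0.19, adjusted p = 0.0541), Cx3cr1 (0.69, SE 0.23, adjusted p = 0.135) and P2ry12 (0.26, SE 0.09, adjusted p = 0.132) did not pass. The Aif1 call held in all 12 fits with an array dropped, and that of Tmem119 ended when wig-1 ASO replicate 2 or 4, or PBS replicate 2 or 3, was the one dropped. Against control ASO, Aif1 rose by 0.83 (SE 0.17, adjusted p = 0.0472), a call lost in 9 of the 12 fits. The summed signal of the 5 was 822 to 897 on PBS, 1072 to 1492 on wig-1 ASO and 740 to 961 on control ASO arrays, with no overlap of wig-1 ASO with the others. The integrin Itga2b of platelets and megakaryocytes, detected on 4 wig-1 ASO, 2 control ASO and no PBS arrays, was at least 1.75-fold higher than with PBS (adjusted p = 0.000762). It was 0.92 higher than with control ASO on the log2 scale (SE 0.17, adjusted p = 0.0420). Its control ASO values, 2.50 to 2.96, also lay above all PBS values, 1.41 to 1.95, a difference that did not pass (adjusted p = 0.382). Itga2b passed the detection limit only through the wig-1 ASO arrays, where it was high, so nothing is read from these calls. The other measured platelet genes did not pass against PBS, Pf4 at 1.87 (SE 0.59, adjusted p = 0.116), detected on 2 PBS, 4 wig-1 ASO and 2 control ASO arrays, and Gp1bb at −0.41 (SE 0.32, adjusted p = 0.565). For such a bound the undetected group is set, on each of its arrays, no lower than the dimmest probe detected there. The neutrophil gene S100a9, detected on 2 PBS, 4 wig-1 ASO and no control ASO arrays, was at least 1.40-fold higher with wig-1 ASO than with control ASO (adjusted p = 0.0473), a call that survived, like that of Itga2b in this comparison, in the same 2 fits as that of Gclm. S100a9 too passed the detection limit only through the wig-1 ASO arrays, and nothing is read from its call. Against PBS it differed by 0.78 (SE 0.35, adjusted p = 0.266), and its control ASO values, 1.15 to 2.48, reached lower than its PBS values, 1.83 to 3.19. S100a8 did not pass, at 1.62 (SE 0.60, adjusted p = 0.183) against PBS and 2.44 (SE 0.60, adjusted p = 0.0870) against control ASO. Of the other genes on the neutrophil list, Ngp, Camp, Elane and Mpo were detected on no array. Of the macrophage genes, Pf4, which is on that list as well, and Mrc1 were measured, and Mrc1 differed by −0.19 (SE 0.20, adjusted p = 0.679) from PBS. The part of these cells in the Hmox1 and iron gene differences was not tested.

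Choroid plexus transcripts varied widely within each group. The choroid plexus transcript Ttr ranged from 6.61 to 13.62 on wig-1 ASO arrays, 9.96 to 13.33 on PBS and 11.64 to 13.66 on control ASO arrays. It was low on wig-1 ASO replicates 1 and 4 (7.65 and 6.61), and these 2 arrays held the second lowest and the highest globin median of the group. All 7 measured striatal markers were lower with wig-1 ASO than with PBS, by 0.33 to 0.93 on the log2 scale, and none passed. At each of the 7, wig-1 ASO replicate 1 was the highest of its group and lay within the PBS range. Rgs9, for example, read 10.63, 9.39, 9.40 and 9.79 with wig-1 ASO, and 10.21 to 10.80 with PBS. Replicate 1 was also the lowest wig-1 ASO array at Hmox1, Ftl1 and Slc40a1. All 7 were also lower with control ASO than with PBS, at a median of −0.38, and the median of wig-1 ASO against control ASO was −0.25, with none passing in either. Their part in the globin and Hmox1 differences was not tested.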

How the data were processed

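Total RNA from BACHD striatum was hybridized to MouseWG-6 v2 BeadChips (Illumina). The authors deposited, per probe and array, an intensity with its detection p-value, and log2 values that equal log2 of the intensities to within 5.6e-09. The methods name lumi and siggenes. The deposited intensities were already quantile normalized (largest difference between sorted arrays 0), so log2 was taken with no further step. A probe was kept where its detection p-value was under 0.01 in 4 or more arrays, and a gene was read at its brightest kept probe. Groups were compared by limma (version 3.58.1, run under R 4.3.3) over all 12 arrays (9 residual degrees of freedom), with Benjamini-Hochberg adjustment over 17188 probes and a limit of 0.05, and checked on simulated data. Where no array of a group detected a gene, each of its signals there was set no lower than the dimmest detected probe on the same array.

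Replicates are separate mice, and with 4 arrays in a group their number limits the precision. The members and gene lists were chosen with earlier results of these data known. Genes named are all member probes, list genes that passed in any comparison, up to 4 per list of smallest p, and the 5 most like the brightest globin probe and Hmox1. Motifs were searched with Python version 3.11.15. Alternatives are given in the closing section.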

Additional observations from a re-analysis of the deposited data

Results flagged for a closer look

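Over the 17 member probes in 3 groups, 51 sets of 4 arrays were searched for an array whose gap to the nearest of the others exceeded Dixon's 95% critical value. Such a gap was found in 3 sets, and chance alone gives about 1 in 20. Hmox1 was 3.39 on the log2 scale in control ASO replicate 4, where the other three control ASO mice had 4.29 to 4.44. Without that array Hmox1 was 1.46 higher with control ASO than with PBS, and 2.55 higher with wig-1 ASO than with control ASO. The Hbb-bs probe ILMN_1255462 was 8.14 in PBS replicate 3, where the other three PBS mice had 7.68 to 7.74. The Hbb-bs probe ILMN_2544056 was 8.84 in control ASO replicate 3, where the other three had 8.35 to 8.42. Both beta globin values were high ones. At Hba-a1, PBS replicate 3 was the lowest of its group at 11.33 and control ASO replicate 3 the highest at 11.84.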

How the results depend on the processing

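The direction of the globins, Alas2, Hmox1 and Blvrb with wig-1 ASO against either group held under every alternative run, Alas1 against control ASO changed sign in 5 of 21, and no control ASO against PBS call of a member appeared. Adding 16 to the signals gave 2.61 for Hmox1 against PBS and −0.42 for Alas2 against control ASO, and the mean over both Blvrb probes gave 0.51 against PBS. Counts of probes passed moved more. The 577 against PBS and 162 against control ASO became 913 and 427 with 16 added, 257 and 22 with no filter on dim probes, 120 and 7 with only the 2 groups compared, and 908 and 432 with array weights. With detection on all 12 arrays the second became 258. The 4 and 3 heme pathway genes became 2 and 0 with no filter and 0 and 0 with only the 2 groups. The 3 and 3 marker genes became 6 and 6 with 16 added, 1 and 0 with only the 2 groups, and 8 and 6 with array weights, and those against control ASO became 0 with no filter and 5 with the mean of all probes. The cause was not tested.

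No sign was found that replicate numbers pair the samples. Same-numbered deviations correlated at −0.14 to 0.13 over 12 pairs, and unlike-numbered ones at −0.20 to 0.25. In this check, 0 arrays correlated best with their own number in both other groups. A weaker effect shared by a number could be missed by it. With the replicate block, 233 and 23 probes passed, 1 and 0 heme pathway genes, and 0 marker genes against control ASO, and 1 probe passed in control ASO against PBS.

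Leaving out 1 array at a time, 156 to 1234 probes passed against PBS, 5 to 545 against control ASO and 0 to 1 in control ASO against PBS. Heme pathway genes ran from 0 to 5, 0 to 3 and 0 to 0, and marker genes from 2 to 10, 0 to 7 and 0 to 0. The lowest counts against PBS came without wig-1 ASO replicate 2 (156), replicate 4 (181) or PBS replicate 2 (186), and the highest without wig-1 ASO replicate 1 (1234). Members stayed within the spread between replicates: against PBS, Hba-a1 was −1.02 to −0.80, Hbb-bt −1.10 to −0.85, Hbb-bs −1.20 to −0.91, Hbb-b2 −1.08 to −0.69, Alas2 −0.97 to −0.54, Hmox1 3.54 to 4.80 and Blvrb 0.20 to 0.30.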
